A study of Mus musculus with 12 samples.

Results

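The purinergic genes described here are 10 genes of signalling by extracellular nucleotides, found by symbol among the 55348 genes of the count files: the ATP-gated channels P2rx2, P2rx3, P2rx4 and P2rx7, the G protein-coupled receptors P2ry1, P2ry2, P2ry6, P2ry12 and P2ry14, and the ectonucleotidase Entpd1. Poly-A RNA of dissected organs of Corti, the strip of hair cells and supporting cells in the cochlea, was sequenced at postnatal day 21 (P21) in 4 genotypes with 3 libraries each. Clrn1-/- mice carried a constitutive deletion of exon 4 of Clrn1, made by crossing a floxed line with PGK-cre mice. Clrn2-/- mice carried the clarinet nonsense allele of Clrn2, and Clrn1-/-Clrn2-/- double mutants came from crossing both lines. Clarin-1 and clarin-2, which these genes encode, are membrane proteins of hair cells. Wild-type mice came from breedings of their own and were not littermates of the mutants. The stria vascularis and the modiolus had been dissected away. The labels do not say how many animals went into a library, so p-values measure the spread between these libraries.

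ATP that leaves cochlear cells acts on P2X receptors, which are cation channels opened by ATP, and on P2Y receptors, which signal through G proteins and answer to ATP, ADP or uracil nucleotides. Ectoenzymes on the cell surface break the nucleotides down to adenosine, which has receptors of its own. In the cochlea such signals are known from the supporting cells of the immature epithelium, from the electrochemical regulation of the endolymph, and from macrophages, and mutations of human P2RX2 cause hearing loss.

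The levels are counts scaled to equal library totals (CPM), scaled by TMM, a factor that corrects library size for composition. Counts on genes ranged from 30008679 to 41049302 per library. Clrn1, the targeted gene, stood at 25.8 ± 2.47 CPM (SD, n = 3) in wild-type, 2.83 ± 0.184 in Clrn1-/-, 28.8 ± 2.83 in Clrn2-/- mice and 2.30 ± 0.482 in double mutants. Clrn2 stood at 2.72, 0.916, 1.23 and 1.08 CPM in the same order, so that its level set the mutants apart from wild-type but not Clrn2-/- from Clrn1-/-. Markers of the labelled tissue were present in every library, with Myo7a of hair cells at 41.8 to 52.6 CPM and Sox2 of supporting cells at 33.3 to 45.3 CPM. Markers of other tissue were present too. In wild-type, 8 markers of Schwann cells and myelin summed to 20700 to 22000 CPM and 5 bone markers to 1920 to 2160 CPM. A gene was called where edgeR's quasi-likelihood test gave an adjusted p (Benjamini-Hochberg, over 19052 genes) no higher than 0.05 and the change was 1.5-fold or more. All 10 genes passed the filter on low counts and none had a mean below 1 CPM in every genotype, so none was too low to test. P2ry14, with 35 to 67 counts per library, and P2rx3, with 32 to 73, were the least precisely measured, and several of their intervals reached past 1.5-fold.

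P2ry1 and P2rx4 were the pair with the smallest adjusted p in Clrn1-/- mice, P2ry1 higher and P2rx4 lower, and the sequence before their start sites is therefore shown. Of the 10 genes, 7 matched the RefSeq promoter table of GRCm38.p6. The 250 bases before the RefSeq start of P2ry1 lie at chr3:61002535-61002784 on the plus strand, and those of P2rx4 at chr5:122707294-122707543 on the plus strand. The Gencode start of P2ry1, at chr3:61002795, is a different base. Capitals mark GC boxes, GGGCGG or its complement CCGCCC.
P2ry1: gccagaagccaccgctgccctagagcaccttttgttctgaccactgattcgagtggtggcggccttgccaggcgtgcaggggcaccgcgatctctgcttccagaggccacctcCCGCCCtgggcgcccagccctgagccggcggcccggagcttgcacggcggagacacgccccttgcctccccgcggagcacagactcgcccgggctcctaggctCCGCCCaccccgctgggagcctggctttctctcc
P2rx4: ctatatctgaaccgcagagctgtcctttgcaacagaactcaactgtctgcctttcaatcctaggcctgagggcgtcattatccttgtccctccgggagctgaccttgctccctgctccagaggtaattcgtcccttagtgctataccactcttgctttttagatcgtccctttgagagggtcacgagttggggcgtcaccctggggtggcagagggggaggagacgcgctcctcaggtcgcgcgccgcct

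The P2ry1 window held 2 GC boxes and a GC content of 70.8%, and the P2rx4 window held no GC box and a GC content of 57.2%. Of 32851 promoter windows of the same length, 32.7% held a GC box. Neither window held a TATA box (TATAAA, in 12.4% of windows), a CCAAT box (CCAAT, 33.8%), a cyclic AMP response element (TGACGTCA, 1.55%) or an AP-1 motif (TGANTCA, 6.75%). Both strands were searched and no motif searched contains another. These matches describe the letters of the windows only.

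Per length of exon, as CPM per kilobase (FPKM), P2rx2 had the highest level of the 10 genes in every genotype, 35.4 ± 4.91 FPKM (SD, n = 3) in wild-type and 103 ± 5.75 in double mutants. A middle group followed in wild-type, with P2ry2 at 6.59, P2rx7 at 5.89, P2ry1 at 5.24 and P2rx4 at 5.06 FPKM. Within it, P2ry2 and P2rx7 overlapped between libraries, as did P2ry1 and P2rx4. Entpd1, at 2.69 FPKM, and P2ry12, at 2.48 FPKM, overlapped too. P2ry6 at 0.953, P2rx3 at 0.552 and P2ry14 at 0.141 FPKM were the lowest, with no overlap between neighbours. The gap between P2rx3 and P2ry14 rests on the exon lengths used, 2789 and 11059 bases, since their wild-type means were 1.54 and 1.55 CPM. In Clrn1-/- and in double mutants P2ry1 rather than P2rx7 stood next to P2ry2. It overlapped with P2rx7 in Clrn1-/-, at 6.99 against 6.88 FPKM, and with P2ry2 in double mutants, at 10.2 against 10.4 FPKM. P2ry12 stood above Entpd1 in Clrn1-/-, at 3.12 against 2.62 FPKM.

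**Figure D1:**
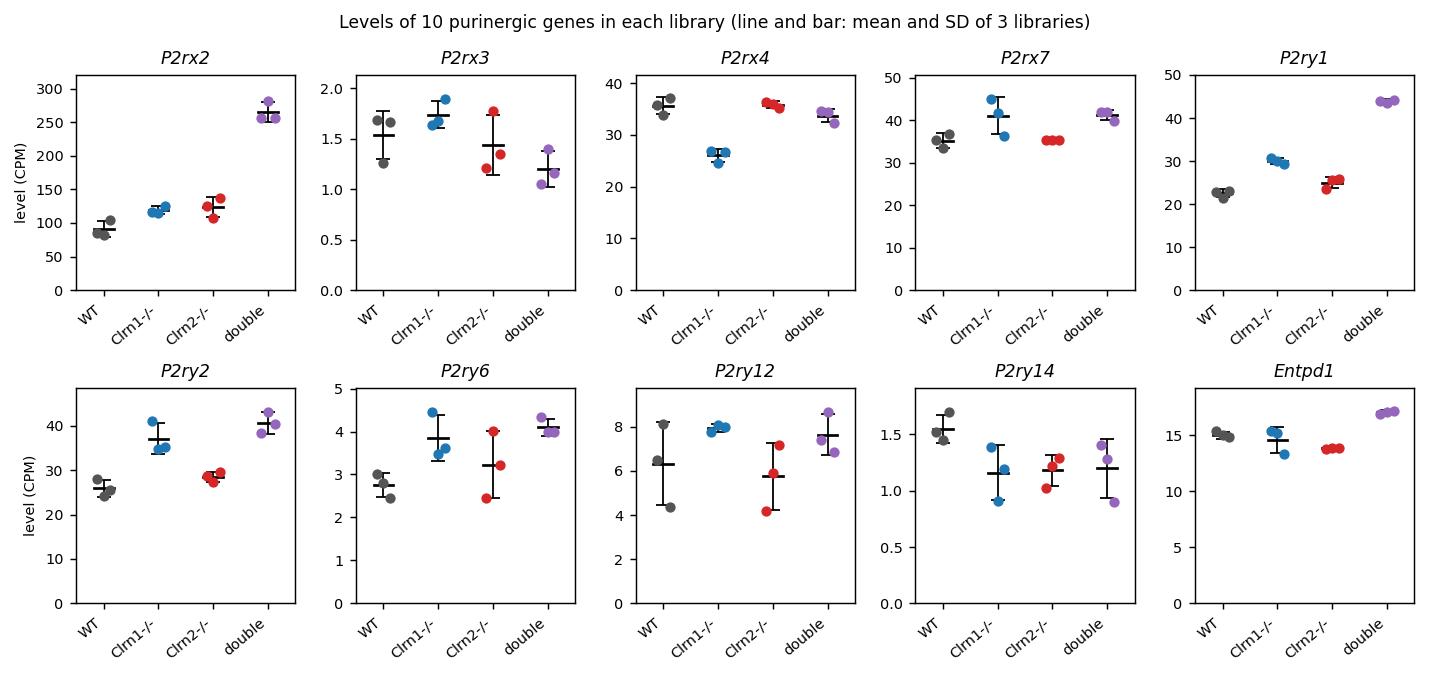
Levels of the 10 genes in CPM (linear axes from 0) in each library of wild-type (WT), Clrn1-/-, Clrn2-/- and Clrn1-/-Clrn2-/- (double) mice. Points are libraries, and lines and bars are the mean and SD of 3. P2rx2 and P2ry1 stand highest in the double mutants, at 257 to 282 CPM and 43.5 to 44.3 CPM, and P2rx4 is lowest in Clrn1-/-, at 24.5 to 26.8 CPM.

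Among the P2X channels, P2rx2 showed the largest difference of the 10 genes in the double mutants. This gene, which encodes a channel opened by ATP and lies at chr5:110339812-110343212 on the minus strand of GRCm38, stood at 85.8, 81.9 and 105 CPM in the wild-type libraries. The Clrn1-/- libraries were at 116, 115 and 126 CPM, the Clrn2-/- libraries at 126, 107 and 137 CPM, and the double mutant libraries at 257, 282 and 257 CPM. Every mutant library was above every wild-type library, the single mutants overlapped each other, and the double mutants stood apart from all others. P2rx2 rose 2.91-fold in the double mutants against wild-type (95% interval 2.55 to 3.33), a log2 change of 1.54 (SE 0.091, adjusted p = 4.29e-09), which ranked 190 of the 1120 genes called higher in that comparison. Against Clrn1-/- the rise was 2.23-fold (adjusted p = 1.76e-07) and against Clrn2-/- it was 2.15-fold (adjusted p = 6.29e-07). In the single mutants P2rx2 was 1.31-fold (adjusted p = 0.00521) and 1.36-fold (adjusted p = 0.00392) the wild-type level in Clrn1-/- and Clrn2-/-, under the fold minimum. Between the single mutants the log2 difference was -0.06, with an interval from -0.25 to 0.13.

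The interaction, the log2 change in the double mutants minus the sum of both single mutants' changes, asks whether losing both genes differs from adding the single effects. For P2rx2 it was 0.72 (SE 0.13, 95% interval 0.45 to 0.99, adjusted p = 0.00116), and P2rx2 was the 1 gene of the 10 called for it, against 5.50% of all genes tested. By adjusted p alone, 4 of the 10 had an interaction above 0, against 9.32% of all genes. Cell type markers moved in the same samples. The summed level of 10 supporting cell markers was 1270 to 1350 CPM in wild-type, 1220 to 1290 in Clrn1-/-, 1210 to 1370 in Clrn2-/- mice and 1760 to 1810 in double mutants, with 3 of the 10 called higher (Fgfr3, Lfng and Otoa) and 1 lower (Prox1) in the double mutants against wild-type. The sum of 11 hair cell markers was 289 to 345 CPM in wild-type, 288 to 346 in Clrn1-/-, 339 to 449 in Clrn2-/- mice and 392 to 420 in double mutants, where 2 were called higher (Ocm and Chrna9) and 1 lower (Gfi1). Double mutants and Clrn2-/- overlapped in the hair cell sum, and did not overlap in the supporting cell sum or in P2rx2. Sums of 6 fibroblast markers were 1650 to 1980 CPM in wild-type, 2110 to 2340 in Clrn1-/-, 1870 to 2140 in Clrn2-/- mice and 2430 to 2620 in double mutants. Those of 8 markers of stria vascularis and melanocytes were 1530 to 1760, 1690 to 1890, 1580 to 1700 and 2110 to 2190 CPM in the same order. None of the defining markers of hair cells or supporting cells was at 0. Their part in the level of P2rx2 was not tested, and in whole tissue a different number of cells and a different amount of RNA per cell cannot be told apart.

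P2rx4, which encodes an ATP-gated channel also found in macrophages and other immune cells and lies at chr5:122707544-122729738 on the plus strand, was the one member that was lower in a mutant by adjusted p. Its wild-type libraries were at 35.7, 33.9 and 37.1 CPM and its Clrn1-/- libraries at 26.8, 24.5 and 26.7 CPM, with no overlap. The Clrn2-/- libraries, at 36.4, 35.9 and 35.1 CPM, and the double mutant libraries, at 34.5, 34.4 and 32.2 CPM, were near wild-type. In Clrn1-/- mice P2rx4 was at 0.730 of wild-type (log2 -0.45, SE 0.054, adjusted p = 1.86e-05), under the fold minimum. Double mutants, which lack Clrn1 too, were 1.30-fold above Clrn1-/- (adjusted p = 7.51e-05) and differed from wild-type by -0.08 on the log2 scale, with an interval from -0.19 to 0.03. The interaction of P2rx4 was 0.36 (adjusted p = 0.00383).

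P2rx7 encodes a channel that opens at high ATP and is known from macrophages, and its gene lies beside that of P2rx4, at chr5:122643911-122691432. Wild-type libraries were at 35.4, 33.4 and 36.7 CPM, and Clrn2-/- libraries at 35.4, 35.4 and 35.3 CPM. Clrn1-/- libraries were at 45.1, 41.8 and 36.3 CPM and double mutants at 41.9, 41.9 and 39.9 CPM. The double mutants did not overlap with wild-type, whereas 1 of the Clrn1-/- libraries lay within its range. The ratio to wild-type was 1.17-fold in Clrn1-/- (adjusted p = 0.0202) and 1.17-fold in double mutants (adjusted p = 0.0123), both under the fold minimum. Without wild-type replicate 2 the adjusted p in the double mutants was 0.0641, and that in Clrn1-/- reached 0.0993 over the alternatives. In Clrn2-/- the interval of the log2 difference ran from -0.13 to 0.15.

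P2rx3, a channel subunit best known from sensory neurons, was near the floor of the data. It stood at 1.69, 1.26 and 1.67 CPM in wild-type, 1.64, 1.68 and 1.90 in Clrn1-/-, 1.21, 1.78 and 1.35 in Clrn2-/- mice and 1.05, 1.40 and 1.16 in double mutants. The double mutants were at 0.782 of wild-type, with an interval from 0.584 to 1.05 (adjusted p = 0.18), and at 0.691 of Clrn1-/- (log2 -0.53, adjusted p = 0.0504). The second difference was called, at -0.66 (adjusted p = 0.0442), without double mutant replicate 2. With all libraries no comparison of P2rx3 was called. The summed level of 12 neuronal markers was 12100 to 13300 CPM in wild-type, 10800 to 11300 in Clrn1-/-, 10500 to 12100 in Clrn2-/- mice and 8360 to 8500 in double mutants, where 1 was called higher (Gap43) and 3 lower (Nefl, Nefh and Snap25). The neuronal sum of Clrn1-/- was below wild-type without overlap, whereas P2rx3 overlapped between them. The part of neurons in P2rx3 was not tested. The gene, at chr2:84998583-85037462 on the minus strand, overlaps Ssrp1 on the plus strand, and counts over P2rx3 in the opposite orientation, 99 to 151 per library, exceeded those in its own orientation in 12 of 12 libraries.

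Among the P2Y receptors, P2ry1 and P2ry2 were called higher in the double mutants. P2ry1, the receptor for ADP through which ATP release excites the immature cochlea, lies at chr3:61002795-61008982 on the plus strand. Its libraries were at 22.8, 21.5 and 23.1 CPM in wild-type, 30.6, 30.1 and 29.3 in Clrn1-/-, 23.6, 25.6 and 25.9 in Clrn2-/- mice and 44.0, 43.5 and 44.3 in double mutants. The 4 genotypes did not overlap, in the order wild-type, Clrn2-/-, Clrn1-/- and double mutants. P2ry1 rose 1.96-fold in double mutants against wild-type (95% interval 1.81 to 2.11, log2 0.97, SE 0.051, adjusted p = 1.42e-09) and 1.76-fold against Clrn2-/- (adjusted p = 5.18e-08). Against Clrn1-/- the double mutants were 1.47-fold higher (adjusted p = 8.85e-07), just under the fold minimum. Clrn1-/- was 1.33-fold above wild-type (adjusted p = 2.75e-05) and Clrn2-/- 1.11-fold (adjusted p = 0.0591). The interaction was 0.40 (95% interval 0.24 to 0.55, adjusted p = 0.00154). An antisense gene, Gm37035, overlaps P2ry1 and had 0 to 10 counts per library.

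P2ry2, a receptor for ATP and UTP at chr7:100996568-101012866 on the minus strand, showed another pattern over the genotypes. Its wild-type libraries were at 28.0, 24.2 and 25.5 CPM and its Clrn2-/- libraries at 28.8, 27.3 and 29.5 CPM. The Clrn1-/- libraries were at 41.1, 34.8 and 35.2 CPM and the double mutants at 38.3, 43.2 and 40.5 CPM. The pair of genotypes without Clrn1 overlapped each other and stood above the pair with it. P2ry2 rose 1.57-fold in double mutants against wild-type (95% interval 1.41 to 1.75, log2 0.65, SE 0.073, adjusted p = 3.48e-06) and was 1.43-fold higher in Clrn1-/- (log2 0.52, adjusted p = 8.6e-05), under the fold minimum. The log2 difference of double mutants from Clrn1-/- was 0.14, with an interval from -0.01 to 0.29, and the interaction was 0.00, with an interval from -0.22 to 0.21 (adjusted p = 0.985). The interval of the log2 change in Clrn2-/- ran from -0.02 to 0.30.

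P2ry6, a receptor for UDP that promotes phagocytosis by microglia, lies beside P2ry2 at chr7:100937630-100974649. It stood at 3.01, 2.79 and 2.45 CPM in wild-type, 4.46, 3.47 and 3.61 in Clrn1-/-, 2.45, 4.01 and 3.23 in Clrn2-/- mice and 4.33, 3.98 and 4.0 in double mutants. Clrn1-/- and double mutants did not overlap with wild-type, and Clrn2-/- did. The double mutants were 1.49-fold above wild-type (95% interval 1.17 to 1.90, adjusted p = 0.0113), just under the fold minimum, and Clrn1-/- was 1.39-fold above it (adjusted p = 0.041, 0.0516 with the replicate number as a block, and up to 0.168 over the alternatives). The double mutants passed the fold minimum, at a log2 change of 0.62, with library size alone in place of TMM, at 0.64 without wild-type replicate 1, and at 0.59 without double mutant replicate 2 or replicate 3.

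P2ry12 and P2ry14, receptors for ADP and for UDP-glucose, were not called in any comparison. P2ry12, a marker of microglia at chr3:59216272-59262871, stood at 6.49, 8.11 and 4.38 CPM in wild-type, 7.75, 8.07 and 8.0 in Clrn1-/-, 4.17, 5.91 and 7.19 in Clrn2-/- mice and 7.41, 8.65 and 6.86 in double mutants. Wild-type and Clrn2-/- libraries were spread more widely (SD 1.87 and 1.52 CPM) than those of Clrn1-/- (SD 0.169), and every mutant overlapped with wild-type. The log2 change in double mutants was 0.27, with an interval from -0.14 to 0.68 that did not exclude 1.5-fold (adjusted p = 0.294). Clrn1-/- against Clrn2-/- was 0.47 (adjusted p = 0.108), and it was called, at 0.66, without Clrn2-/- replicate 3 (adjusted p = 0.05). P2ry14, at chr3:59113855-59153618, was at 1.52, 1.45 and 1.70 CPM in wild-type and at 0.902 to 1.41 CPM in the mutants. Its mutant libraries were all below wild-type, and the intervals of the fold, 0.547 to 1.01 in Clrn1-/-, 0.557 to 1.03 in Clrn2-/- mice and 0.560 to 1.04 in double mutants, included 1 and reached past a fall of 1.5-fold. Both genes lie within Med12l, which runs on the opposite strand and had 1228 to 2145 counts per library.

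Entpd1, whose product CD39 converts ATP and ADP to AMP, was the ectonucleotidase of the set and lies at chr19:40612366-40741602 on the plus strand. It stood at 15.4, 15.0 and 14.8 CPM in wild-type, 15.4, 15.2 and 13.3 in Clrn1-/-, 13.8, 13.9 and 13.9 in Clrn2-/- mice and 16.9, 17.1 and 17.2 in double mutants. The double mutant libraries were above all others, by a small margin. The ratio to wild-type was 1.14-fold (adjusted p = 0.0366), to Clrn1-/- 1.17-fold (adjusted p = 0.0158) and to Clrn2-/- 1.23-fold (adjusted p = 0.00322), all under the fold minimum. The interaction was 0.34 (adjusted p = 0.0195). The adjusted p against wild-type was above 0.05 under 12 of 22 alternatives of the analysis, up to 0.163, and that of the interaction reached 0.0609.

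**Figure D2:**
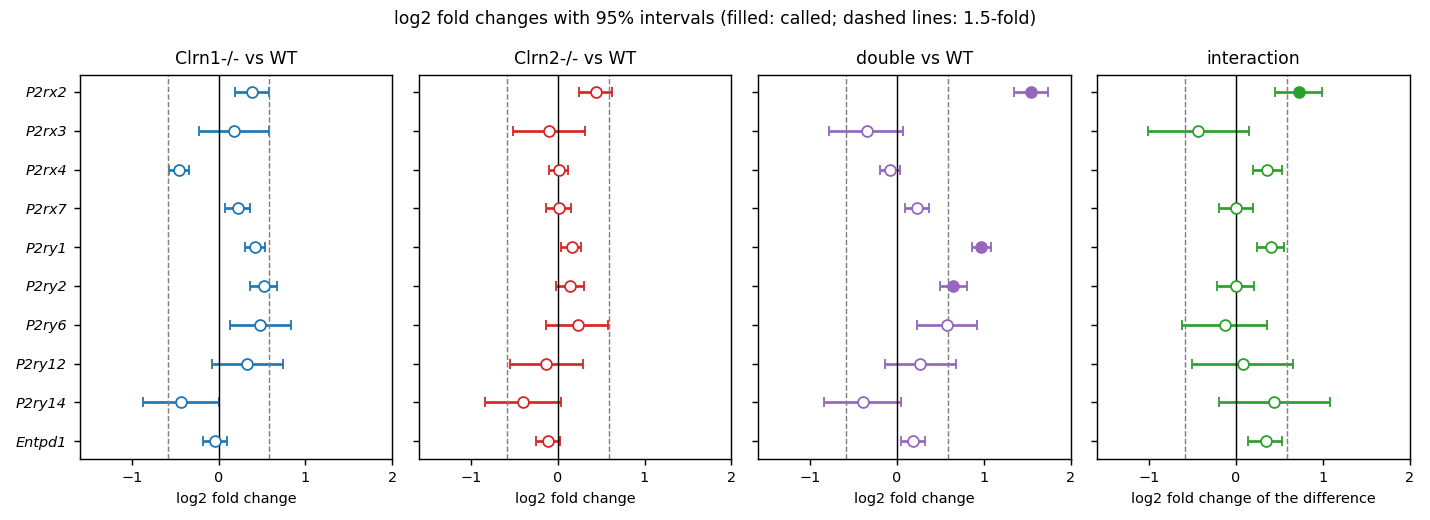
Fold changes of the 10 genes on a log2 scale, with 95% intervals, in Clrn1-/-, Clrn2-/- and double mutants against wild-type and for the interaction. Filled points were called and dashed lines mark 1.5-fold; P2rx2 at 1.54, P2ry1 at 0.97 and P2ry2 at 0.65 are the filled points of the double mutants.

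Over the 10 genes, none was called in Clrn1-/- against wild-type, where 7.22% of all genes tested were called, and none in Clrn2-/-, where 2.66% were. At an unadjusted p under 0.05 edgeR gave 6 and 2, and limma-voom and DESeq2 called 0 in both. The share of all genes at an unadjusted p is not given, here or below, and the percents of calls do not apply to such counts. In the double mutants 3 were called, all higher, where 9.90% of all genes were called and 5.88% were called higher. By adjusted p alone, 5 of the 10 were higher in Clrn1-/-, as were 13.6% of all genes, and 1 was lower, as were 13.3%. In the same way 1 was higher in Clrn2-/- (7.14% of all genes) and 6 in double mutants (19.1%). Those 6 (P2ry1, P2ry2, P2ry6, P2rx2, P2rx7 and Entpd1) were also the genes whose double mutant libraries all lay above wild-type, a pattern shown by 25.0% of all genes. P2ry14 was the 1 gene with all of them below, a pattern shown by 23.2%. The median log2 change of the 10 genes was 0.28 in Clrn1-/-, 0.01 in Clrn2-/- mice and 0.25 in double mutants, against -0.003, -0.002 and 0.001 over all genes tested.

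The comparisons between mutants ask what the loss of the other clarin gene added. Between Clrn1-/- and Clrn2-/- none of the 10 was called by edgeR, limma-voom or DESeq2 (4.73% of all genes tested by edgeR), with 5 at an unadjusted p under 0.05, and 3 were higher in Clrn1-/- by adjusted p alone (P2ry1, P2ry2 and P2rx7, against 9.51% of all genes) and 1 lower (P2rx4, against 8.99%). Double mutants against Clrn1-/- gave 1 call, P2rx2 (7.23% of all genes), and against Clrn2-/- gave 2, P2ry1 and P2rx2 (5.10%). Each of these comparisons shares libraries with those against wild-type.

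Genes known from macrophages were among the 10, and markers of those cells moved with genotype. The summed level of 13 macrophage markers, a list with none of the 10 genes, was 160 to 206 CPM in wild-type, 255 to 275 in Clrn1-/-, 187 to 238 in Clrn2-/- mice and 259 to 305 in double mutants. Of the 13, 4 were called higher in Clrn1-/-, 1 in Clrn2-/- mice and 8 in double mutants, with none lower and none of Csf1r and Cx3cr1, which define these cells, at 0. By adjusted p alone, P2ry6 and P2rx7 were higher in Clrn1-/- and double mutants, P2rx4 was lower in Clrn1-/-, and P2ry12 did not pass in either. None of these genes was called against wild-type. The part of macrophages in these levels was not tested. All 5 red blood cell markers were called lower in Clrn1-/-, at a median log2 change of -1.43, where P2rx4 was at -0.45. These 5 were also called lower in Clrn2-/-, at a median of -0.73, where the log2 change of P2rx4 was 0.01. In double mutants their median was -0.56, with 2 called lower (Hba-a1 and Hba-a2) and all 5 lower by adjusted p. There P2rx4 was at -0.08. All 5 markers were called for an interaction above 0, at a median of 1.53. The part of red blood cells in the level of P2rx4 was not tested.

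P2ry14, P2ry12 and P2ry1 lie 0.269, 0.375 and 2.14 Mb from Clrn1 on chromosome 3. Of 54 genes tested within 5 Mb of Clrn1, 5 were called in Clrn1-/- against wild-type (9.26%, against 7.22% of all genes), namely Postn, Gpr149 and Mindy4b-ps, which rose, and Sertm1 and Gm42840, which fell. In Clrn2-/- 1 was called (1.85%, against 2.66%), Sertm1, which fell. In double mutants 9 were called (16.7%, against 9.90%), P2ry1 among them. P2ry1 was 1.47-fold higher in double mutants than in Clrn1-/- mice, which carry the same Clrn1 allele. What sequence flanking that allele contributes was not tested. None of the 10 genes lies within 5 Mb of Clrn2, and P2rx2, P2rx7 and P2rx4, on its chromosome, are 64.9, 77.2 and 77.3 Mb away.

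A further 26 genes of the pathway, comprising other receptors, ectoenzymes, and the release and uptake of nucleotides and adenosine, were listed, and 22 were tested. P2ry4, P2ry10, P2rx1 and Adora3 had at most 10 counts in any library and were too low to judge. In Clrn1-/- 1 of the 22 was called, against 7.22% of all genes, namely Acpp, which rose. None was called in Clrn2-/- by edgeR, limma-voom or DESeq2, against 2.66% of all genes in edgeR, where 4 were lower by adjusted p alone (7.07% of all genes), 0 were higher and 6 had an unadjusted p under 0.05. In double mutants P2ry13, Entpd2 and Acpp rose and P2rx5 fell, where 9.90% of all genes were called. By adjusted p alone 3 were higher, against 19.1% of all genes, and 6 lower, against 17.9%. The median log2 change of the 22 was 0.05, -0.11 and -0.13 in Clrn1-/-, Clrn2-/- and double mutants, against -0.003, -0.002 and 0.001 over all genes tested.

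P2ry13, a receptor for ADP 0.345 Mb from Clrn1, stood at 2.67, 2.52 and 1.59 CPM in wild-type, 2.91, 3.16 and 3.30 in Clrn1-/-, 1.83, 2.05 and 2.36 in Clrn2-/- mice and 3.67, 3.83 and 3.17 in double mutants. The log2 change in double mutants was 0.66 (adjusted p = 0.00716). Acpp, whose product removes phosphate from AMP, stood at 3.54, 3.26 and 2.25 CPM in wild-type, 5.66, 5.54 and 5.82 in Clrn1-/-, 2.45, 3.37 and 2.87 in Clrn2-/- mice and 5.84, 4.70 and 5.31 in double mutants. In P2ry13 and Acpp, as in P2ry2, the libraries of both genotypes without Clrn1 stood above those of both genotypes with it. The log2 change of Acpp was 0.92 in Clrn1-/- (adjusted p = 0.000442) and 0.81 in double mutants (adjusted p = 0.000715).

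Entpd2, whose product converts ATP to ADP, stood at 1.57, 1.97 and 2.05 CPM in wild-type, 2.75, 2.41 and 2.49 in Clrn1-/-, 2.39, 1.96 and 1.55 in Clrn2-/- mice and 3.25, 2.50 and 2.78 in double mutants. It showed the same order without overlap, and its log2 change in double mutants was 0.60 (adjusted p = 0.0125). P2rx5, an ATP-gated channel, stood at 1.69, 2.00 and 2.58 CPM in wild-type and 1.70, 0.921 and 0.980 in double mutants. These groups overlapped in 1 double mutant library, and P2rx5 fell by 0.82 on the log2 scale (adjusted p = 0.0136). Of the P2X and P2Y genes outside the 10, P2ry13 and P2rx5 were thus called in opposite directions.

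**Figure D3:**
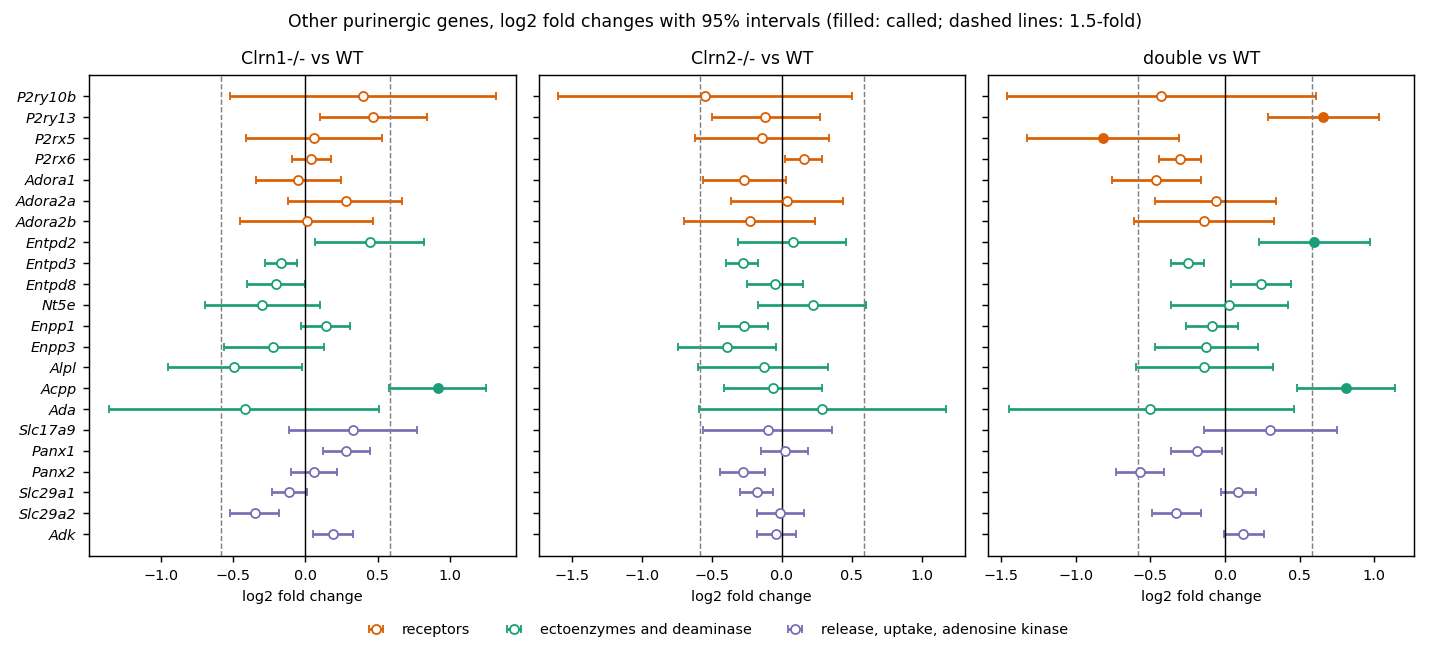
Fold changes on a log2 scale, with 95% intervals, of the 22 other purinergic genes tested, in each mutant against wild-type. Colours mark receptors, ectoenzymes with adenosine deaminase, and release, uptake and adenosine kinase; filled points were called and dashed lines mark 1.5-fold. Acpp is filled in Clrn1-/- at 0.92, no gene in Clrn2-/-, and 4 genes in double mutants.

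The genes whose levels over the 12 libraries were most like those of the 3 members called were found as those with the smallest root-mean-square difference between log2 CPM profiles, each centred on its own mean, among 15405 genes. Nearest to P2rx2 were Tmprss3 (0.0537), a serine protease gene of hereditary deafness, Cldn9 (0.0669), a tight junction gene, and Ceacam16 (0.0711), which encodes a glycoprotein of the tectorial membrane. Tmprss3 stood at 75.2 CPM in wild-type, 99.4 in Clrn1-/-, 102 in Clrn2-/- mice and 215 in double mutants, close to the means of 91.0, 119, 124 and 265 CPM of P2rx2. Nearest to P2ry1 were Ccn2 (0.0766), Bmp6 (0.0912), which encodes a bone morphogenetic protein, and Wfdc2 (0.092). Nearest to P2ry2 were Fam210b (0.0623), Vcl (0.0646), which encodes the adhesion protein vinculin, and Foxd3 (0.081). The same 12 libraries, with their differences in genotype, depth and dissection, underlie every profile.

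**Figure D4:**
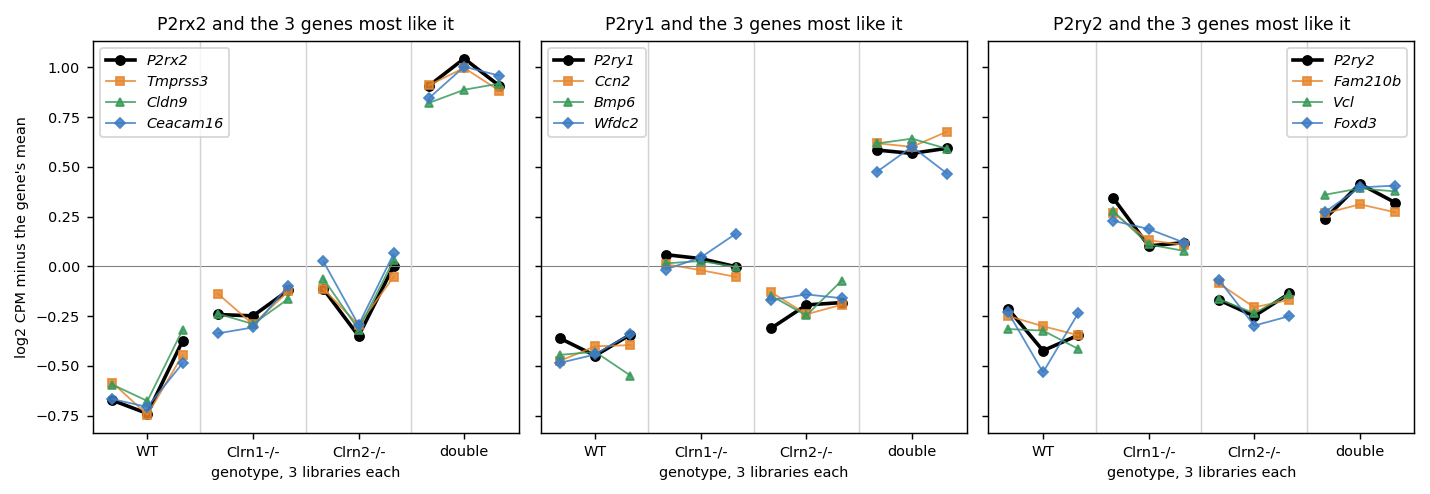
Profiles of P2rx2, P2ry1 and P2ry2 (black) and of the 3 genes most like each (coloured), as log2 CPM minus the gene's mean, in 3 libraries of each genotype; lines join the libraries of a genotype and imply no order. P2rx2 and Tmprss3 differ by a root mean square of 0.0537.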

How the data were processed

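The study extracted RNA from organs of Corti and sequenced stranded poly-A libraries as paired reads of 100 bases. The authors counted reads on the genes of Gencode vM24 (GRCm38.p6) with STAR, and deposited these counts unnormalized, 1 file per library. The version of STAR is not given in the sources used here. Of the 3 count columns the reverse-strand one was used, which held 95.2% to 95.6% of stranded counts. Reads assigned to no gene, 13.5% to 15.8% of all reads in that column, were left out. Reads that fit genes of both strands can be lost without strand information.

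Tests were run in edgeR 4.0.16 under R 4.3.3 (filterByExpr with a minimum count of 10, TMM, quasi-likelihood test, all 12 libraries in 1 fit on genotype), and 19052 genes were tested. The method was tested on simulated data. Standard errors were derived from the test statistic, and interval limits are at 95%. The study's own test was limma-voom, which was run as an alternative with limma 3.58.1, as was DESeq2 1.42.0. Coordinates and exon lengths came from Gencode M21 of the same build. The 10 genes, the gene lists and the rule for genes named (all members, other purinergic genes called against wild-type, the 3 genes most like each member called, and neighbours of Clrn1 in counts of 5 or fewer) were chosen with earlier results of these data known.

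Genotypes share replicate numbers. Over 12453 genes, the deviations of same-numbered libraries correlated at 0.269, 0.126 and 0.105 between wild-type and Clrn1-/-. No other comparison had correlations over 0.1 in every pair. A pairing was thus seen in that comparison only, from the data and not from the labels. The main tests used no pairing. The replicate number entered as a block in an alternative, for all comparisons. Replicates differed by more than counting error.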

Additional observations from a re-analysis of the deposited data

Results flagged for a closer look

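The effect of losing both genes differed from the sum of the single effects, by the interaction test of edgeR's quasi-likelihood fit, for 4 of the 10 genes. The log2 interaction was 0.40 for P2ry1 (adjusted p = 0.00154), 0.72 for P2rx2 (adjusted p = 0.00116), 0.36 for P2rx4 (adjusted p = 0.00383) and 0.34 for Entpd1 (adjusted p = 0.0195). All 4 were above 0, and by adjusted p alone 9.32% of all genes tested were. For P2rx4, Clrn1-/- was at -0.45 against wild-type and double mutants were at -0.08, the second with an interval that includes 0.

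Counts in the orientation opposite to P2rx3, which no comparison used, had a median of 142.5 per library, above the counts of P2rx3 itself in 12 of 12 libraries. Ssrp1, the gene that overlaps it on that strand, had 2672 to 3665 counts.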

How the results depend on the processing

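Counts of calls depended most on the fold minimum. Without it, the members called numbered 6 in Clrn1-/-, 1 in Clrn2-/- and 6 in double mutants against wild-type (0, 0 and 3 with it). Of all genes, 13.6% were then higher and 13.3% lower in Clrn1-/-, 7.14% and 7.07% in Clrn2-/-, and 19.1% and 17.9% in double mutants. Members called without it numbered 4 in Clrn1-/- against Clrn2-/- (0 with it), where 9.51% of all genes were higher and 8.99% lower. For the interaction they numbered 4 (1 with it), all above 0, as were 9.32% of all genes. The other purinergic genes called without the fold minimum numbered 5, 4 and 9 in Clrn1-/-, Clrn2-/- and double mutants against wild-type (1, 0 and 4 with it). Leaving out 1 library at a time gave 3 to 4 members in double mutants against wild-type (P2ry6 as the fourth without wild-type replicate 1 or double mutant replicate 2 or replicate 3), 0 to 1 members in Clrn1-/- against Clrn2-/- (P2ry12 without Clrn2-/- replicate 3), 1 to 2 in double mutants against Clrn1-/- (P2rx3 at -0.66 without double mutant replicate 2) and 1 to 2 other purinergic genes in Clrn1-/- against wild-type (2 without wild-type replicate 1 or replicate 3). With the replicate number as a block, the members called numbered 0, 0 and 3 against wild-type, and no call changed; the pairing moved the adjusted p of P2ry6 in Clrn1-/- past 0.05. Of 1530 values for single members under limma-voom, DESeq2, other scalings, filters, unstranded counts, the 2 genotypes alone, the block, no fold minimum and left-out libraries, 1501 kept their side of the call, 29 gained one, none lost one, and 51 changed sign without being called either way. P2rx2 in double mutants against wild-type ranged from 1.46 to 1.65.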
